A study of Sus scrofa with 6 samples.

Results

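Cytosolic ribosomal protein genes encode the proteins that, with the ribosomal RNAs, form the large and the small subunit of the ribosome in the cytoplasm. Members were the genes whose only symbol in the platform annotation began with RPL, RPS or RPLP and a digit, together with RPSA. The 3 S6 kinase symbols, 5 paralogue symbols with an L suffix and RPS19BP1, which encodes a protein that binds a ribosomal protein, were left out. This gave 58 of the 6765 genes with a symbol of their own: 31 of the large subunit, 24 of the small subunit and 3 of the P stalk, the flexible arm of the large subunit that recruits elongation factors. The symbol rule itself used no signal, though the members were chosen with earlier results of these data known. Where a gene had several probe sets, as 24 members did, the brightest by mean log2 signal stood for it. A signal of 36.1 was taken as the floor of measurement, and 56 members were above it on at least 2 of the 6 arrays and entered the comparisons. RPL30 and RPS15A were not tested. RPL30 had signals of 2.16 to 31.2 on 5 arrays and 213 on the native articular array, and RPS15A stayed between 6.24 and 26.7.

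Ribosomal proteins are needed in matched amounts, and an excess of a free subunit protein is degraded. Their mRNAs begin with a run of pyrimidines, the TOP motif, through which the mTOR pathway sets how well they are translated, and the transcription factor MYC promotes their transcription and the assembly of subunits in the nucleolus. In the skeleton, altered RPL13 causes a human dysplasia of the growth plate, and loss of Rpl38 function in mice alters the patterning of the axial skeleton.

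The samples were porcine, with 1 array for each of 6 conditions. Native growth plate cartilage, where long bones lengthen, was compared with native articular cartilage, the lining of the joint. Chondrocytes released from each cartilage with collagenase were also cultured at 37 °C under low oxygen (5%, with 5% carbon dioxide), in a serum-containing medium with antibiotics and no further additive, and sampled at day 10 and day 20 of differentiation. Each array was made from 100 ng of total RNA. Genotype, breed and age of the pigs, and whether tissue was pooled or shared between arrays, were not given in the sources used here. No condition was replicated, so a difference between 2 arrays has no replicate check. The p-values below come from limma, fitted to all 5598 genes with a tissue term and a stage term, and measure a difference only against the departure of the arrays from the sum of these terms. Members' signals are written in the order native, day 10, day 20.

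The arrays shared a common mean signal once the top and bottom 2% of values were left out. Their total signal ran from 13257000 at day 10 of the growth plate culture to 14512900 on the native articular array. Between 44 and 50 members were in the top 1% of an array, and so outside that mean. The highest signals of the arrays lay between 19960 and 27967, the latter on the native articular array. Of 10 chondrocyte markers 6 were measured, and their summed signal ran from 29764 to 39900, most of it from ACAN, the cartilage proteoglycan aggrecan (6596 to 15883), and HAPLN1, its link protein (12888 to 16969.6). SOX9, the chondrocyte transcription factor, had a signal of 982 on the native articular array, against 175 on the native growth plate array and 76.8 to 125 in culture. COL2A1, the main collagen of cartilage, was likewise highest there, at 2929 against 1164 to 1689 elsewhere. COL11A1, a minor cartilage collagen, and COMP, a matrix protein, were lowest on that array, at 378 and 3390.00 against 431 to 1089 and 5098 to 8205 elsewhere, and HAPLN1 was highest at day 20 of the articular culture. Of the markers of other cells, all 4 lymphocyte genes and 4 of 6 endothelial genes measured were at or below the floor on every array, with summed signals of 14.5 to 56.2 and 99.1 to 365. The endothelial sum of 365 was that of the native articular array, where PECAM1 had a signal of 277 against 52.6 to 118 elsewhere. Summed fibroblast-like markers, 4 of 5 measured, ran from 2044 on the native articular array to 7315 on the native growth plate array and 3417 to 12891 in culture. Osteoblast markers, 5 of 5 measured, summed to 10740.1 to 15732 in growth plate samples and to 177, 432 and 6072 in articular ones, where IBSP, a matrix protein that hypertrophic chondrocytes also make, gave 10642 to 15675 of the growth plate sums. Osteoclast markers, 3 of 5 measured, summed to 5822 to 17860, highest on the native articular array. Nearly all of this came from CTSK, at 17802 there against 5803 to 14767.5 elsewhere. Erythroid markers (4 of 6 measured) summed to 283 to 666 and muscle markers (4 of 6) to 82.8 to 323. Adipocyte markers (3 of 4) summed to 51.6 to 202 and macrophage markers (3 of 6) to 42.9 to 68.3. The part of other cells in the results below was not tested. In a bulk sample, fewer cells of a type and less RNA per cell cannot be told apart. The 27 hybridisation control probe sets, which report bacterial and phage transcripts added to the hybridisation mix, also differed between arrays, and their differences are given beside those of the members.

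Ribosomal protein genes were among the brightest on every array. Between 31 and 39 of them were among the 100 highest probe sets of an array, and together they carried 4.57% to 6.66% of the total signal. This share was 4.61%, 4.57% and 5.45% on the growth plate arrays and 6.66%, 5.08% and 5.60% on the articular arrays, so the native articular array had the most and the native and day 10 growth plate arrays the least. The median member signal followed the same order, with 11815, 11388 and 14063 across the growth plate series against 17867, 12681 and 14220 across the articular series. The 5 members with the highest mean were RPL13A, RPL5, RPS18, RPL31 and RPSA. RPL13A, which in its free form takes part in silencing inflammatory mRNAs, had signals of 17919, 17846 and 22793 across the growth plate series against 27429, 22645 and 24452 across the articular series. RPL5, which carries the 5S ribosomal RNA into the large subunit and can bind the p53 regulator MDM2, had 19960, 19237 and 22538 across the growth plate series against 27967, 19965 and 22193 across the articular series. For both genes the native articular array was highest, and for RPL5 it held the highest signal of any probe set. The 5 tested members with the lowest mean were RPL26, RPL37, RPL34, RPS24 and RPLP2. RPL26 lay between 46.8 and 91.0 and RPL37 between 477 and 1002, while RPL34, RPS24 and RPLP2 lay between 1969 and 6412. A probe set's level depends on its own probes, so these low signals do not compare the amounts of the mRNAs.

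**Figure D1:**
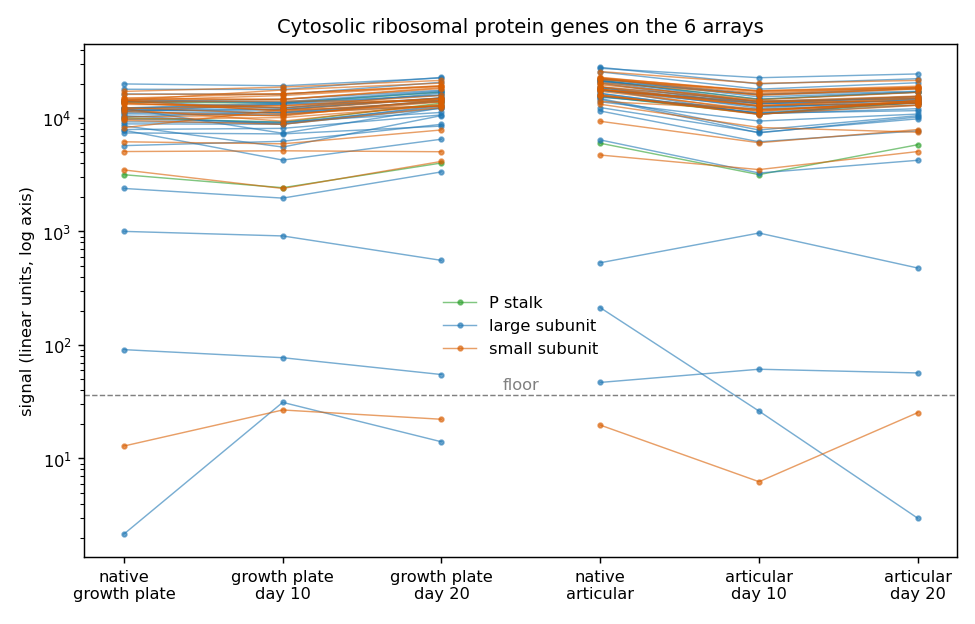
Signal of each of the 58 ribosomal protein genes (linear units on a log axis) on the 6 arrays, 1 array per condition; lines join the arrays of one tissue, colours mark the subunit, and the dashed line is the floor of 36.1. Most members form a tight band that is highest on the native articular array, with RPL37, RPL26, RPL30 and RPS15A below it.

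In native cartilage, ribosomal protein genes were lower in growth plate than in articular tissue. The log2 difference, growth plate minus articular, was below 0 for 54 of 56 members, against 50.2% of all genes tested, and its median was -0.63 (1.55-fold, with quartiles of -0.76 and -0.54), against -0.01 over all genes. At least 1.5-fold lower were 36 members (64.3%), where the background was 20.9%. At least 2-fold lower were 5 members (8.93%), near the 7.88% of all genes. None was at least 2-fold higher, against 12.9%. The median was -0.66 over the 30 large subunit genes, -0.58 over the 23 small subunit genes and -0.64 over the 3 P stalk genes. Each of these was below 0 under every scaling tried, but their size depended on the scaling. With quantile normalization they were -0.20, -0.12 and -0.19, or -0.12, -0.04 and -0.11 relative to all genes.

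The 5 members that differed by at least 2-fold were RPL34, RPL35, RPS9, RPL38 and RPL13. RPL34, a large subunit protein, had signals of 2395, 1969 and 3351 across the growth plate series against 6412, 3275 and 4240 across the articular series. Its native articular signal stood above all others, and the native difference was 2.68-fold. RPL35, which lies at the exit of the tunnel for the nascent chain, had 5710.04, 6236 and 8799 across the growth plate series against 12359, 7466 and 9836 across the articular series, a native difference of 2.16-fold. RPS9, a small subunit protein that binds early in assembly, had 6171, 5924 and 7844 against 13224, 8256 and 7495, so that its 2 native arrays were 2.14-fold apart and its day 20 arrays nearly level. RPL38, the gene linked to axial patterning in mice, had 8873, 8818 and 12934 against 17909.6, 10766 and 14135, or 2.02-fold between the native samples. RPL13, the dysplasia gene, had 7390.19, 7243 and 8489.77 against 14861, 7836 and 10489, or 2.01-fold. In each of these 5 genes the native articular array was the highest of the 6, and the cultures lay closer together than the native samples. The 5 were picked by their native difference, which favours such a pattern, so it carries no weight for the members as a set.

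At the other end, RPL26 (signals of 91.0, 77.3 and 54.9 across the growth plate series against 46.8, 61.1 and 56.7 across the articular series) and RPL37 (1002, 914 and 557 across the growth plate series against 530.4, 969 and 477 across the articular series) were the 2 members higher in native growth plate, by 1.94-fold and 1.89-fold. These are also the 2 tested members with the lowest mean signal. RPL26 encodes a large subunit protein that can bind p53 mRNA, and RPL37 a small zinc-binding protein of the large subunit.

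**Figure D2:**
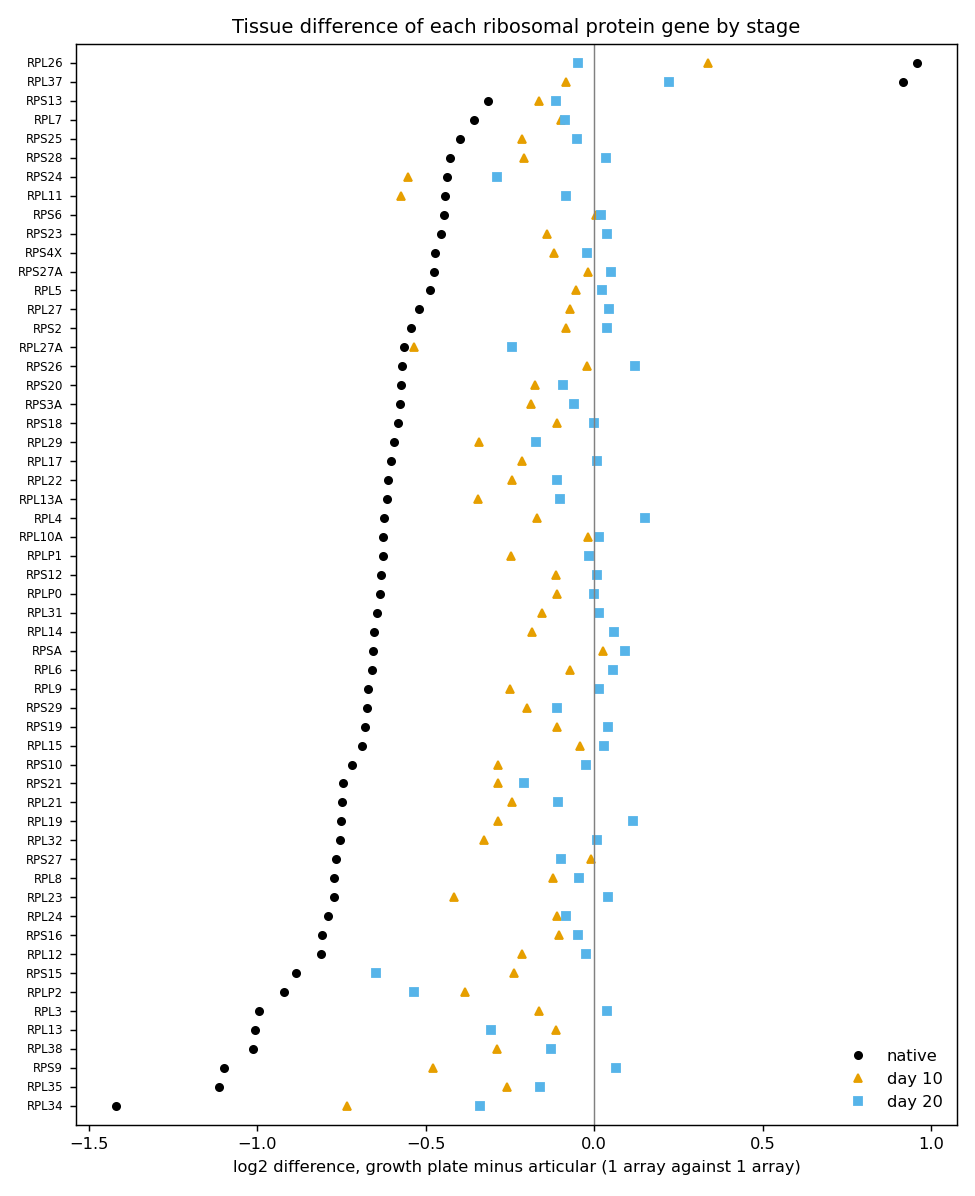
Log2 difference between the growth plate and the articular array for each of 56 members (rows, ordered by the native difference) in native tissue (circles), at day 10 (triangles) and at day 20 (squares), each 1 array against 1. Native differences are below 0 for 54 members, while at day 20 the members lie on both sides of 0 (30 below); with scaling to the hybridisation controls the day 10 and day 20 medians are above 0.

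In the deposited scaling the tissues lay closer together in culture, though the change in the difference was not tested. At day 10, 53 of 56 members were lower in the growth plate culture, against 53% of all genes, with a median of -0.17 (all genes -0.03). At day 20, 30 were lower, against 53.6% of all genes, with a median of -0.02 (all genes -0.04). RPL34 kept the widest gap at day 10, at -0.73, and RPS15, a small subunit protein near the decoding site, the widest at day 20, at -0.65. All 27 hybridisation control probe sets were lower on the growth plate array at both days, with mean differences of -0.30 at day 10 and -0.24 at day 20. Under scaling to the hybridisation controls the medians were -0.39 native, 0.13 at day 10 and 0.22 at day 20, so the culture differences turned sign. The medians of all genes were then 0.18, 0.25 and 0.17. Relative to all genes the members therefore stood at -0.57, -0.12 and 0.05, against -0.63, -0.14 and 0.02 in the deposited scaling. Quantile normalization, which gives all arrays one distribution of signals, left a native median of -0.18 (44 of 56 below 0), or -0.10 relative to all genes.

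Other bright genes were lower in native growth plate as well. The 110 other genes with a mean log2 signal above 13 had a native median of -0.36, with 90 below 0, which became 0.02 with quantile normalization, and the 282 other genes between 12 and 13 had -0.18. Members above 13, 47 in number, had -0.63, and the 9 at or below 13 had -0.89. The hybridisation controls were lower in all 27 probe sets on the native growth plate array than on the native articular array, by a mean of 0.24 on the log2 scale. The signal ratio of the 3' to the 5' probe set of GAPDH, a measure of how complete the labelled RNA is, was 1.26 on the native growth plate and 1.52 on the native articular array, while that of actin was 4.94 and 4.28 and that of EF1A 1.20 and 1.07, in the opposite order. The part of these values in the members' difference was not tested.

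**Figure D3:**
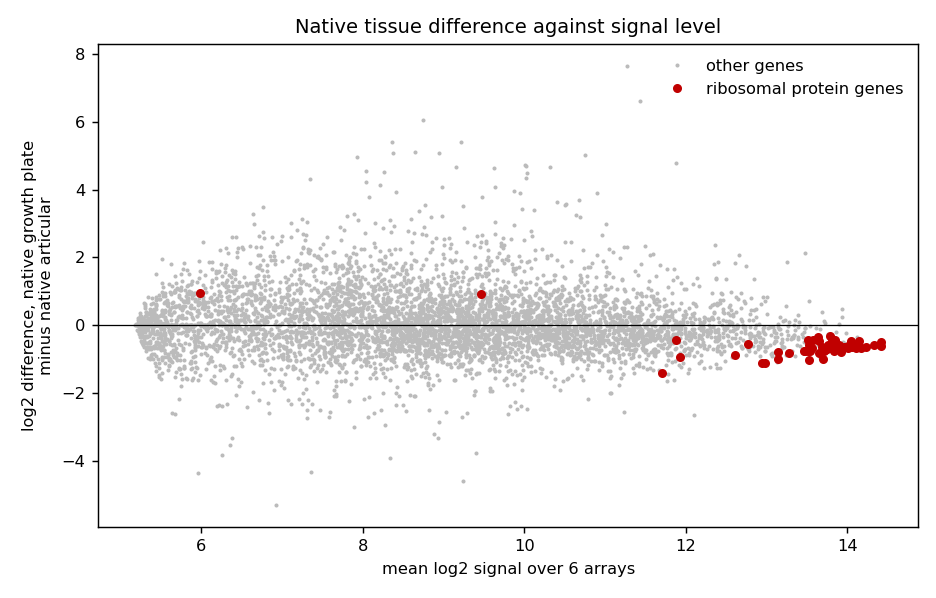
Log2 difference between native growth plate and native articular cartilage (vertical) against the mean log2 signal over 6 arrays (horizontal) for 5598 genes, with the 56 ribosomal protein genes in red. All but 2 members lie below 0 at the bright end, where the other genes above a mean of 13 also have a median below 0 (-0.36, or 0.02 with quantile normalization).

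Articular cultures were lower in ribosomal protein genes than native articular cartilage. At day 10, 54 of 56 members were below their native value, against 45.8% of all genes, with a median of -0.50 (1.41-fold), and 16 were at least 1.5-fold lower, against 20.3%. At day 20, 54 were lower than native, against 46.5%, with a median of -0.32. These comparisons share the native articular array. Both cultures were below native for 53 members, against 36.5% of all genes, and for 53 the native articular array was the highest of all 6, against 27.5%. These directions were the same under quantile normalization, median centring and scaling to the hybridisation controls, with medians of -0.09, -0.69 and -0.27 at day 10 and -0.09, -0.51 and -0.32 at day 20. Of the 110 other genes above a mean log2 of 13, 88 were also lower than native at day 10 and 77 at day 20. Their medians were -0.34 and -0.24, which became 0.03 and -0.04 with quantile normalization. The hybridisation controls differed from native by -0.24 at day 10, lower in all 27 probe sets, and by -0.01 at day 20. The part of these values in the members' difference was not tested.

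In growth plate samples the day 10 culture was close to native tissue. There 34 of 56 members were lower, against 46.2% of all genes, with a median of -0.03, which became 0.01 with quantile normalization and 0.27 with hybridisation control scaling (all genes then 0.32). At day 20, 51 members were above native, against 50.6%, with a median of 0.32, which stayed above 0 under each of these scalings (0.08 to 0.33). The hybridisation controls differed by -0.30 between day 10 and native growth plate and by -0.01 between day 20 and native. For these 2 pairs the 110 other genes above a mean log2 of 13 had medians of -0.03 (61 below 0) and 0.16 (85 above 0). The lowest of the 6 arrays was the day 10 growth plate array for 32 members, against 15.6%, and the native growth plate array for 21, against 14.4%. For 21 members both cultures were above native in growth plate and below native in articular samples, against 8.2% of all genes. This count depends on the scaling, since it rests on the sign of the small day 10 change in growth plate. In the deposited scaling 22 of 56 members were above 0 there. With median centring 13 were (median -0.07), and with hybridisation control scaling 50 of 57.

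RPS27 and RPSA were among these 21. RPS27, a zinc-finger protein of the small subunit, had signals of 8221, 11816 and 12755 across the growth plate series against 13998, 11896 and 13655 across the articular series, so its native growth plate array was the lowest. RPSA, a small subunit protein also known as the laminin receptor precursor, had 14336, 17667 and 20308 across the growth plate series against 22583, 17366 and 19075 across the articular series. In RPSA as well, the native growth plate array was the lowest and the native articular array the highest. RPS6, the small subunit protein phosphorylated by S6 kinases, stayed between 13821 and 14124 in growth plate, and had 18842, 14056 and 13893 in articular samples, so the native articular array alone stood apart. RPS27A, made as a fusion with ubiquitin, had 16153, 16319 and 19259 against 22443, 16531 and 18605, and RPS19, which is mutated in Diamond-Blackfan anaemia, had 14253, 15779 and 18986 against 22839, 17030.0 and 18437. For these last 2 genes the day 10 values of the tissues lay closer together than the native ones.

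RPL27A, RPL23 and RPL11 had the 3 lowest culture differences over both tissues. RPL27A, a large subunit protein, had 7804, 4259 and 6504 across the growth plate series against 11532, 6172 and 7709 across the articular series, and so was lower in all 4 cultures than in the native tissue they came from. RPL11, which with RPL5 accompanies the 5S RNA, had 12132, 7340.18 and 12275 across the growth plate series against 16484, 10927 and 13001 across the articular series, lowest at day 10 in both tissues. RPL23, which like RPL5 can bind MDM2, had 8538, 5547 and 10505 across the growth plate series against 14595, 7398 and 10217 across the articular series, again lowest at day 10.

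From day 10 to day 20 the members were higher in both tissues. In growth plate 52 of 56 were above their day 10 value, against 46.2% of all genes, with a median of 0.32, and 52 of the articular members were above theirs, against 48.8%, with a median of 0.18. In both tissues together 51 were higher, against 33%. The hybridisation controls were also higher at day 20, in 27 of 27 probe sets by a mean of 0.29 for growth plate, and in 26 of 27 by 0.23 for articular cultures, and the other genes above a mean log2 of 13 had medians of 0.21 and 0.12. Scaled to the hybridisation controls, the members' medians were 0.03 for growth plate and -0.05 for articular cultures, a change of sign in the latter, while the medians of all genes were then -0.31 and -0.21. Quantile normalization gave 0.06 and 0.01. RPL37 ran the other way and was the member at least 2-fold lower in the articular pair, where it differed by -1.02, and it differed by -0.72 in the growth plate pair. From day 10 to day 20 the 3' to 5' ratio of actin went from 3.27 to 5.55 in growth plate and from 4.58 to 8.75 in articular cultures. That of EF1A went from 1.25 to 1.31 and from 1.45 to 1.51. The GAPDH ratio was lower at day 20, going from 1.49 to 0.995 and from 1.44 to 1.15. The part of these ratios in the day difference was not tested.

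The P stalk genes were also higher at day 20 than at day 10 in both tissues in the deposited scaling, where the hybridisation controls were higher as well. RPLP0, the stalk base and a common reference gene in PCR, had signals of 13804, 13531 and 16904 across the growth plate series against 21449, 14611 and 16926 across the articular series. RPLP1 had 10028, 9178 and 13522 against 15494, 10884 and 13669. RPLP2, its partner in the stalk, had 3165, 2431 and 4014 across the growth plate series against 5996, 3171 and 5815 across the articular series, so that in both tissues the day 10 array was the lowest.

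Across all 6 arrays no member met the limma call, a Benjamini-Hochberg adjusted p under 0.05 with at least a 2-fold change. For the tissue difference over all stages 0.0536% of all genes met it, for culture against native 0%, and for day 20 against day 10 0%. The median tissue difference of the members was -0.29 (all genes -0.04), the median culture difference -0.13 (0.06) and the median day difference 0.25 (-0.02). Scaled to the hybridisation controls the tissue median was -0.029 (all genes 0.21), the culture median 0.0088 (0.18) and the day median -0.0082 (-0.26), so the last 2 changed sign, and quantile normalization gave a day median of 0.036. On leaving out each array in turn the day median ran from 0.06 without the day 20 growth plate array to 0.44 without the day 20 articular array. Without the native articular array the median tissue difference was -0.09 and the median culture difference 0.14, and without the native growth plate array the latter was -0.42. The residual SD of the members' median over the arrays was 0.21, on 2 degrees of freedom.

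At an unadjusted p under 0.05, 5 members were lower in growth plate, against 5.7% of all genes, and 0 higher, against 4.98%. They were RPLP2, RPL34, RPS15, RPL27A and RPS24. RPL34 had a limma tissue difference of -0.83 (SE 0.24, adjusted p = 0.42), RPLP2 of -0.61 (SE 0.18, adjusted p = 0.42) and RPS15 of -0.59 (SE 0.18, adjusted p = 0.44), and each was lower in 3 of 3 stages. For culture against native, 1 member was lower, against 8.75%, and 0 higher, against 10.6%. This was RPL27A, at -0.65 (SE 0.16, adjusted p = 0.15 in limma). For day 20 against day 10, 5 were higher, against 7.11%, and 1 lower, against 7.54%. RPLP2 was higher by 0.80 (SE 0.22, adjusted p = 0.23), RPL23 by 0.69 (SE 0.24, adjusted p = 0.30), RPS24 by 0.66 (SE 0.19, adjusted p = 0.25), and RPL11 and RPL27A by 0.50 and 0.47 (adjusted p = 0.34 for both), each in both tissues. RPL37 differed by -0.87 (SE 0.33, adjusted p = 0.32), lower in both tissues. As shares of the 56 members, 5 come to 8.93% and 1 to 1.79%, so the counts were near or below the background.

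The bright members varied together. Over the 51 members with a mean log2 signal above 12, the median correlation between pairs of members across the 6 arrays was 0.93, and 44 correlated above 0.9 with the median of the others. All points share the arrays and their scaling, so this is a description. The 4 members least like the rest were RPS27 (0.69), RPL27A (0.80), RPL11 (0.81) and RPS6 (0.82).

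Where a member had several bright probe sets, these gave like values. The native difference was -0.52 and -0.51 for the 2 bright probe sets of RPL27, -0.65 and -0.71 for those of RPL31, and -0.58, -0.66 and -0.71 for the 3 of RPS18. The other 28 further probe sets, with means at or below log2 12, were mixed: 14 were below 0 in the native pair, 10 above 0 and 4 at the floor on both arrays. RPL34 and RPL38 had weaker probe sets at -1.41 and -0.72, of like sign to their bright ones. For RPLP0, RPL17 and RPL6 a second probe set with signals of 258 to 475, 316 to 506 and 111 to 262 had native differences of 0.88, 0.68 and 0.73, opposite to those of the bright ones (-0.64, -0.60 and -0.66). RPL35 had a second probe set with signals of 129 to 1019 and a native difference of 1.48. RPL23 had one at -2.67 and another at 0.14, and RPS28, a small subunit protein, had -0.43 in its bright probe set and -1.21 and 0.28 in 2 weak ones.

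Other genes of the translation apparatus were set beside the members. A list of 50 genes pooled translation factors with genes of TOP mRNAs, and the TOP motif was not checked gene by gene. Of these 40 were tested, and 39 were lower in native growth plate, against 50.2% of all genes. Their median was -0.63 (-0.41 with quantile normalization and -0.38 with hybridisation control scaling). The 4 farthest apart were EIF1B, EIF5B, EIF3K and EIF3I, initiation factors or subunits of one, at -1.62, -1.53, -1.28 and -1.17. In articular samples their median was -0.60 at day 10 and -0.50 at day 20 against native. At an unadjusted p under 0.05 in limma, 5 were lower in the tissue difference and 8 lower and 1 higher in culture, and none met the call. The shares of all genes were 5.7% for the first and 8.75% and 10.6% for the others. Of 10 genes for ribosomal proteins or their paralogues outside the symbol rule, 6 were tested and all 6 were lower in native growth plate, with a median of -0.89 (-1.02 to -0.61 under the other scalings). FAU, which encodes a small subunit protein fused to a ubiquitin-like part, had signals of 10257, 10966 and 12744 across the growth plate series against 19895, 12201 and 13749 across the articular series. RPL22L1, a paralogue of RPL22, had 3146, 2101 and 3029.77 against 7877, 2633 and 2816, so its native articular array stood alone.

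Nucleolar genes of ribosome assembly were lower in native growth plate too, but followed another course in culture. Of 70 listed, 54 were tested, 50 were lower in native growth plate with a median of -0.89 (-1.01 to -0.64 under the other scalings), and 21 were at least 2-fold lower, against 50.2% and 7.88% of all genes. PPAN, needed for large subunit maturation, had signals of 173, 370.2 and 222 across the growth plate series against 873, 605 and 291 across the articular series, and MRTO4, which holds the place of RPLP0 in the immature subunit, had 218, 406 and 241 against 929.6, 611 and 331. DKC1, the pseudouridine synthase of ribosomal RNA, had 430.2, 949 and 583 against 1663, 963 and 570.4, and NHP2, its partner, had 433, 1144 and 759 against 1442, 1450.4 and 863. In growth plate these 4 genes were highest at day 10. Over the list the growth plate day 10 array was above native by a median of 0.67 (all genes 0.03). There 43 of 54 were above native, against 51.6% of all genes. Day 20 was below day 10 by a median difference of -0.59 for growth plate and -0.29 for articular cultures, where the ribosomal protein genes had 0.32 and 0.18. Under the other scalings these 2 nucleolar medians stayed below 0, at -0.88 to -0.53 and -0.52 to -0.29. The limma day difference was lower at an unadjusted p under 0.05 for 8 of the 54 and higher for 0, against 7.54% and 7.11% of all genes, and none met the call.

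Mitochondrial ribosomal proteins, which serve translation inside mitochondria, had a native median of -0.03 over the 58 tested, with 30 below 0. It was -0.12 with quantile normalization (38 below 0), -0.16 with median centring (36 below 0) and 0.21 with hybridisation control scaling. MRPL52 differed by -1.56 and MRPS14 by 1.44. Day 10 was above native by a median of 0.49 in growth plate and 0.53 in articular samples, each with 48 of 58 above 0, against 51.6% and 52.1% of all genes, and both medians were above 0 under each scaling. At an unadjusted p under 0.05, 13 of the 58 were higher in culture and 0 lower, against 10.6% and 8.75% of all genes, with no limma call.

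Of 26 listed genes of MYC and mTOR control, 11 were tested. MYC had signals of 747, 532 and 495 across the growth plate series against 2705, 642 and 574 across the articular series, so the native articular array was far above the rest. MXI1, which competes with MYC for its partner MAX, had 864, 292 and 1483 against 56.9, 120.1 and 605, and was lowest on that array. SESN1, an inhibitor of mTORC1, had 338, 482 and 179.6 against 104, 163 and 290.2, and EIF4EBP2, a repressor of cap-dependent translation, had 958, 1244 and 749 against 2286, 1275 and 977. For MYC the limma culture difference was -1.35 (adjusted p = 0.17), lower in 4 of 4 cultures than in the native tissue. The median native difference of the 11 was -0.58 and stayed below 0 under the other scalings. Of the 11 genes 7 were below 0 and 4 above, where 50.2% of all genes were below 0. Their native differences ran from -1.86 to 3.92, so the genes did not share one direction.

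**Figure D4:**
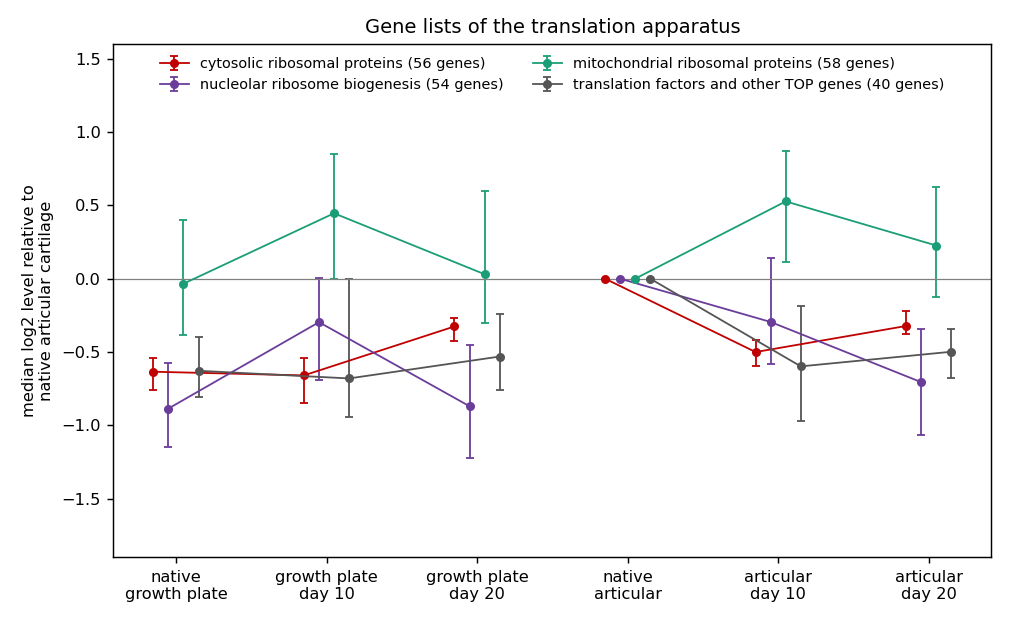
Median log2 level of 4 gene lists on each array relative to the native articular array (0 by definition), with bars from the lower to the upper quartile of the genes in the list. Cytosolic ribosomal protein genes are higher at day 20 than at day 10 in both tissues (with hybridisation control scaling the articular day difference is -0.05), nucleolar assembly genes are lower at day 20 than at day 10, and mitochondrial ribosomal protein genes are highest at day 10.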

How the data were processed

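Total RNA of 6 samples was hybridised to porcine Affymetrix arrays. The authors deposited 1 linear intensity for each probe set, and the submitters' processing notes name GCOS 1.4. The scaling target is not given in the sources used here. The mean of the values with the top and bottom 2% left out had a ratio of highest to lowest array of 1.00004, so they were not normalized again. Control probe sets (124 of 24123) were left out, signals were raised to a floor at the 40th percentile (36.1), and log2 was taken. Probe sets with 1 symbol (10069) gave 6765 genes, the brightest probe set standing for each, and 5598 passed the filter. An additive model of tissue and stage was fitted with limma 3.58.1 in R 4.3.3 (files read with the data.table package, version 1.17.8), with an intensity trend, 2 residual and 3.78 prior degrees of freedom, and tested on simulated data. Single arrays were compared without a test. The number of arrays limits the precision. The members and gene lists were chosen with earlier results of these data known. Named members were, per contrast, the 5 largest each way, those 2-fold apart in native tissue, the 5 highest and lowest by mean, well-known members and those whose probe sets disagree, with up to 4 genes per other list. RPL30, RPS15A, IBSP and genes sharing a probe set with another symbol were named after their values were seen. Alternatives covered scaling, floor, filter, probe set, bright members, prior and arrays. Scaling to hybridisation controls and the use of every bright probe set were added after seeing the data. No sequences were used here.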

Additional observations from a re-analysis of the deposited data

Results flagged for a closer look

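In 12 of the members named by rule, both growth plate cultures were above native growth plate cartilage and both articular cultures below native articular cartilage. Of all 56 members tested 21 had this pattern, against 8.2% of all genes, and the count depends on the scaling as described above. The difference between the tissues was not tested, since each condition has 1 array. The mean culture change in growth plate minus that in articular samples, on the log2 scale, was 0.90 for RPL35. It was 0.71 for both RPS27 and RPSA, 0.65 for both RPL6 and RPS19, and 0.62 for both RPL10A and RPS26. Smaller values were 0.53 for RPS18, 0.52 for RPS2, 0.51 for RPL27, 0.49 for RPS27A and 0.46 for RPS6. Over all 56 members the median culture change was 0.14 in growth plate (44 above 0) and -0.42 in articular samples (54 below 0). At the single days 51.6% (day 10) and 50.6% (day 20) of all genes were above native in growth plate. In articular samples 45.8% and 46.5% of all genes were below native. Every one of these values uses both native arrays.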

How the results depend on the processing

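The count of members meeting the limma call was 0 under every alternative run. The members' median tissue difference (-0.29) ranged from -0.41 to -0.09 on leaving out each array in turn, the culture difference (-0.13) from -0.42 without native growth plate to 0.14 without native articular cartilage, and the day difference (0.25) from 0.06 without day 20 growth plate to 0.44 without day 20 articular. Quantile normalization moved the day difference to 0.036, and leaving out members above a mean log2 of 13 moved the tissue difference to -0.50. Scaling to the hybridisation controls, added after seeing the data, moved the tissue and day differences to -0.029 and -0.0082, while the medians of all genes were 0.21 and -0.26. With every member probe set above log2 12, also added, the native median was -0.65. Reversed estimates were those of weak probe sets: the RPL23 day difference was -0.12 as the mean of its probe sets and -0.83 in its second probe set, the RPL34 day difference -0.091 and the RPL35 tissue difference 0.50 in theirs. The floor, filter, pseudocount, prior and shared-probe settings moved none of the 3 medians beyond the residual spread. Tissue and stage were both terms of the fit, so the tissue difference is already taken within each stage, and no replicate numbers pair samples beyond that. Very bright probe sets may respond less than in proportion, which was not tested.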

Other observations

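Some ribosomal protein probe sets carry several symbols and were outside the rule. A probe set annotated to both LMLN and RPL35A had signals of 11498, 12141 and 16082 across the growth plate series against 21820, 13511 and 17441 across the articular series, and one annotated to ANAPC11 and RPL10 had 13199, 14622 and 19456 against 21801, 16559 and 18292. Their native differences were -0.92 and -0.72, and in both the native articular array was the highest. A probe set of DUT and RPL36 had a native difference of -0.85, and one of RPS15 and an uncharacterised locus had -1.07. RPS19BP1, the set-aside binding protein, had 195, 428 and 200.2 across the growth plate series against 103, 476 and 347 across the articular series, highest at day 10 in both tissues.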
